A study of Anas platyrhynchos with 8 samples.

Results

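The genes described here are transcription factors tied to the fat cell programme: PPARG and its partner RXRA, the C/EBP factors CEBPA, CEBPB, CEBPD and CEBPG, the early B-cell factors EBF1 and EBF2, the zinc finger protein ZNF423 and the GATA factor GATA2. They were chosen by name, as rows of the deposited mRNA table that carry 1 of these 10 symbols. The table held 9 of the 10, in 32 of its 48592 transcripts and among 13213 symbols. EBF2 was not analysed here, since no row carried that symbol. The libraries were made from abdominal fat of F2 ducks (Anas platyrhynchos), sampled when the birds were 42 days old. In 4 of them, called HF, the abdominal fat rate was high, and in the other 4, called LF, it was low. All birds shared the same rearing conditions with free access to feed and water. The labels separate the groups by fat rate alone, with no genotype, agent or diet. They give no sex, and whether a library is 1 bird or a pool is left unstated, so every p-value measures only the spread between these 8 samples.

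Fat cell formation is known mainly from mouse and human cells. In that model CEBPB and CEBPD come on first, when hormones such as glucocorticoids are given, and then raise PPARG and CEBPA, which keep each other on and drive the genes of lipid storage. PPARG is a nuclear receptor that binds DNA as a pair with RXRA. EBF factors and ZNF423 act earlier, in the commitment of precursor cells, while GATA2 holds preadipocytes back and is also a factor of endothelial and blood cells.

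The mRNA libraries held between 12696240 (LF-1) and 30836178 (LF-2) estimated counts. The adipocyte genes FABP4, PLIN1, LPL and ADIPOQ, used to check the labelled tissue, had mean levels of 15729, 1482, 1428 and 42.8 FPKM (a level scaled to transcript length and library size), and all 6 adipocyte markers listed were detected. Transcripts described in the deposited table as W-linked stood at 1818 to 4226 counts in the HF libraries, at 3 to 8 counts in LF-1, LF-2 and LF-3 and at 2861 counts in LF-4. The W chromosome is carried by female birds, so whatever goes with it cannot be told apart from the fat group except through LF-4, and the members' values in LF-4 are therefore given. No member lies on chromosome Z in the reference gene table. In bulk tissue, fewer cells of a type and less RNA per cell cannot be told apart.

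PPARG was the most abundant of the 9 factors and CEBPD the least. Mean FPKM over the 8 libraries, summed per gene, was 210.2 for PPARG, 132 for CEBPA, 38.5 for EBF1, 27.8 for CEBPG, 16.3 for ZNF423, 7.99 for RXRA, 6.96 for CEBPB, 6.10 for GATA2 and 3.73 for CEBPD. PPARG ranked 186 and CEBPD 7423 among the 12529 symbols with a level above 0, so 98.5% of symbols stood below PPARG and 40.8% below CEBPD. The pair of late adipogenic factors thus stood well above the pair of early ones, with CEBPA 3.42-fold above EBF1, the next gene down. The first 6 genes of the order kept it in 8 of 8 libraries: PPARG was above CEBPA in each, although the range of PPARG (141 to 295 FPKM) overlapped that of CEBPA (88.4 to 183). The lower end of the order was not separated beyond the spread. RXRA was above CEBPB in 6 of 8 libraries and CEBPB above GATA2 in 4 of 8, and GATA2 was above CEBPD in 7 of 8.

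**Figure D1:**
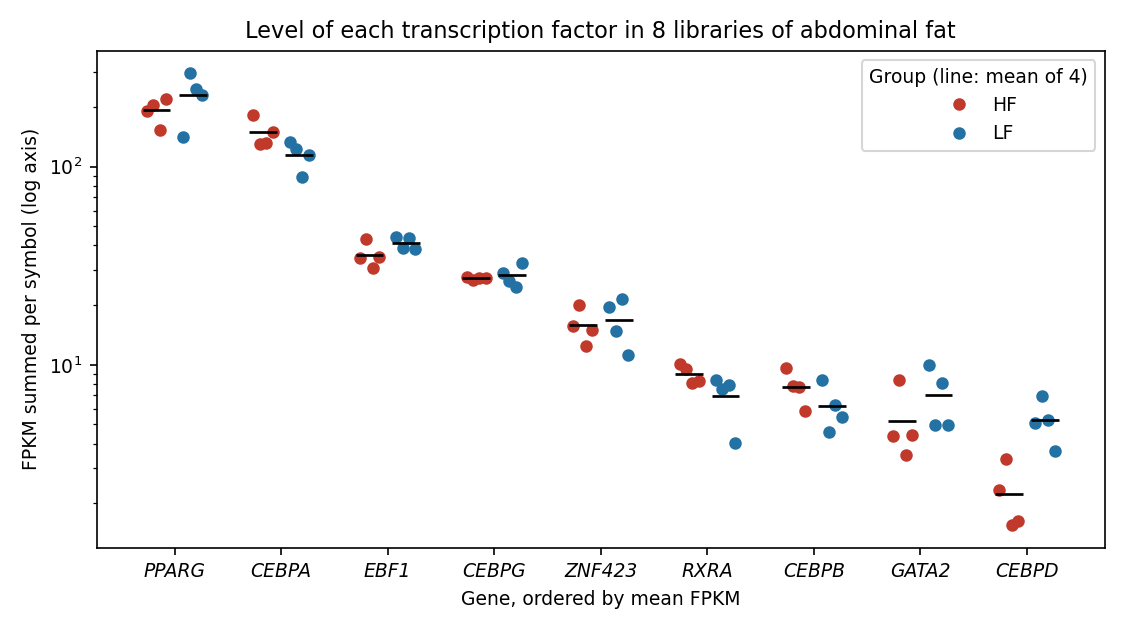
Level of each of the 9 measured factors as FPKM summed per gene (log axis), with 1 point per library, HF and LF side by side and a line at the mean of each group of 4. PPARG and CEBPA sit above the other factors in every library, and CEBPD is the gene whose HF points lie lowest against its LF points.

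The comparison of HF with LF asked whether these factors differ with fat deposition. None of the 9 passed edgeR's quasi-likelihood test with Benjamini-Hochberg adjustment over the 10511 genes tested, at an adjusted p under 0.05, where 0.647% of all genes passed (0.295% higher and 0.352% lower in HF). All 9 had passed the low-count filter. At an unadjusted p under 0.05 there were 2 members, CEBPD and EBF1, against 15% of all genes. Positive log2 fold changes, meaning higher in HF, were found for CEBPA, CEBPB and RXRA, and negative ones for the other 6. The median over the members was -0.13, between -0.27 (LF-4 left out) and -0.076 (LF-1 left out) and -0.032 with a covariate for the W-described transcripts, and that over all genes tested 0.0012. The 4 HF and 4 LF libraries did not overlap in CPM (counts scaled to library size with TMM) for CEBPD and EBF1, 2 of 9 members, against 9.19% of all genes. With DESeq2, which called 5.51% of all genes, CEBPD was the single member called.

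**Figure D2:**
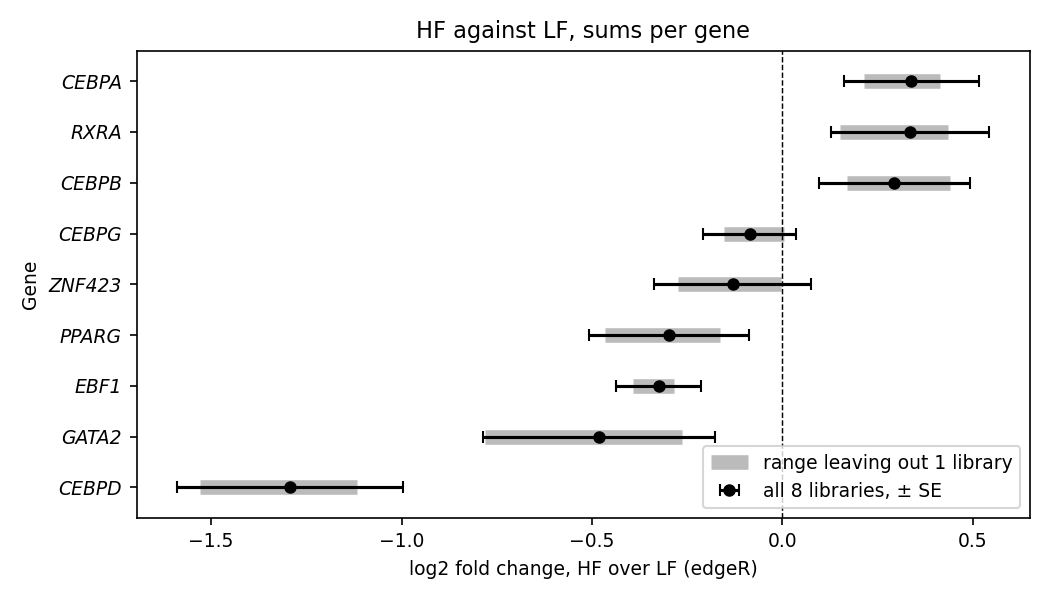
Log2 fold change of HF over LF for the 9 factors from edgeR's fit on sums per gene, with bars for the standard error and 0 marked by a dashed line. CEBPD stands apart at -1.29, and the other 8 lie between -0.48 and 0.34.

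PPARG, the receptor at the centre of the programme, stood at 737.8, 780.0, 580.0 and 789.7 CPM in HF-1 to HF-4 and at 560.1, 1124, 931.0 and 933.4 CPM in LF-1 to LF-4. The lowest library of all was LF-1 and the other 3 LF libraries were above every HF library, so the groups overlapped through LF-1. The HF mean was 722 ± 97.2 CPM and the LF mean 887 ± 236 (SD, n = 4 in both), a log2 fold change of -0.30 ± 0.21 (SE; edgeR, Benjamini-Hochberg adjusted p = 0.550). It was -0.47 without LF-1 and -0.16 without LF-2, and it did not pass the threshold whichever library was left out. RXRA, the receptor that pairs with PPARG on DNA, stood at 61.9, 55.6, 48.8 and 50.1 CPM in HF and at 51.6, 47.2, 47.2 and 25.6 in LF. LF-4 was far below the other 7 libraries, which lay close together. The log2 fold change of RXRA was 0.34 ± 0.21 (adjusted p = 0.488) and 0.15 without LF-4. With the covariate for the W-described transcripts (the W covariate), where the contrast rests on HF against the single library LF-4, it was 1.08 ± 0.20 (edgeR, adjusted p = 0.0476), in a fit that called 1.22% of all genes.

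CEBPA, the C/EBP factor of the mature fat cell, stood at 488, 331, 348 and 397 CPM in HF and at 356, 335, 229 and 316 in LF. HF-1 was the highest and LF-3 the lowest library, and the other 6 intermixed between 316 and 397 CPM. Its log2 fold change was 0.34 ± 0.18 (edgeR, adjusted p = 0.403), and 0.21 and 0.22 when HF-1 or LF-3 was left out. CEBPB, an early C/EBP factor, ranged from 24.3 to 40.2 CPM in HF and from 21.2 to 34.3 in LF, at a log2 fold change of 0.29 ± 0.20 (adjusted p = 0.523). It lay between 0.17 (HF-1 left out) and 0.44 (LF-1 left out), and was 0.49 with the W covariate. CEBPG, a widely expressed member that lacks an activation domain of its own and dimerises with other C/EBP proteins, was the steadiest of the 9 in HF, at 60.3 to 64.0 CPM. In LF it ranged from 56.8 to 77.9 CPM, with LF-4 highest, and its log2 fold change was -0.086 ± 0.12 (adjusted p = 0.797), 0.003 without LF-4 and -0.32 ± 0.15 with the W covariate.

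CEBPD, the other early C/EBP factor and a gene known to respond to glucocorticoids and inflammation in mammals, showed the largest difference of the 9. It stood at 4.44, 6.14, 2.92 and 3.08 CPM in HF-1 to HF-4 and at 9.81, 13.5, 9.74 and 7.29 CPM in LF-1 to LF-4. Every HF library was below every LF library, with HF-2 the highest of HF and LF-4 the lowest of LF. The HF mean was 4.14 ± 1.49 CPM and the LF mean 10.1 ± 2.57 (SD, n = 4 in both). The log2 fold change from edgeR was -1.29 ± 0.30 (SE), or 2.45-fold lower in HF, with a Benjamini-Hochberg adjusted p of 0.0893 that missed the threshold. DESeq2 gave -1.30 with an adjusted p of 0.00216, and limma on log2(FPKM + 1) gave -0.97 with 0.0711, a scale that understates the change of low genes. Leaving out 1 library at a time moved the value between -1.53 (without HF-2) and -1.12 (without LF-2), with adjusted p from 0.0599 to 0.223. With the covariate for W-described transcripts the value was -0.82 ± 0.42 (adjusted p = 0.326). In the authors' deposited table, the single CEBPD transcript had a log2 fold change of -1.24 and an unadjusted p of 0.105. The gene was counted 1237 times in all, the fewest of the 9.

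Since CEBPD is a hormone and stress responsive gene, it was set beside 16 measured genes known to respond to glucocorticoids or acute stress in mammals. Of these, 2 passed edgeR's test, which called 0.647% of all genes, both lower in HF: PDK4, a kinase that shuts off pyruvate dehydrogenase, and ZBTB16, a zinc finger repressor. The log2 fold changes of 15 of the 16 were negative, with a median of -0.80 (0.0012 for all genes tested). Of the 16, 9 had an unadjusted p under 0.05, against 15% of all genes, and 5 had groups that did not overlap, against 9.19%. ZBTB16 stood at 7.55, 8.55, 2.29 and 5.20 CPM in HF and at 39.6, 69.4, 35.4 and 92.6 in LF, so every HF library was several-fold below every LF library. Its log2 fold change was -3.34 ± 0.45 (edgeR, adjusted p = 0.0182). PDK4 stood at 359, 463, 296 and 323 CPM in HF and at 1053, 999, 807 and 1121 in LF, with a wide gap between the groups. Its log2 fold change was -1.46 ± 0.18 (adjusted p = 0.0137). Neither passed without HF-1 (adjusted p = 0.0623 for both) or without HF-4 (0.0794 for ZBTB16 and 0.0651 for PDK4), and both passed when any other library was left out.

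FKBP5, a chaperone of steroid receptors that glucocorticoids induce, did not pass edgeR's test with all libraries, at 3.57, 2.85, 4.31 and 5.75 CPM in HF and 10.7, 17.9, 13.5 and 46.6 in LF (log2 fold change -2.42 ± 0.47, edgeR adjusted p = 0.0557). Its groups did not overlap, and LF-4 was far above the other LF libraries. FKBP5 passed when LF-4 was left out (edgeR, adjusted p = 0.0350) and with DESeq2 (adjusted p = 1.6e-05). With the W covariate, where the contrast rests on HF against LF-4, its value was -3.49 ± 0.33. MYC, an immediate response gene of growth, was at a log2 fold change of -1.18 ± 0.22 (edgeR, adjusted p = 0.0530, DESeq2 adjusted p = 0.000153), and passed when LF-2 was left out (adjusted p = 0.0401). NR3C1, the glucocorticoid receptor itself, was at -0.095 ± 0.12 (adjusted p = 0.765). FKBP5, MYC and NR3C1 were singled out after their values were seen. HF-2, the HF library with the most CEBPD, was also the HF library nearest to LF over the list: 6 of its 16 genes were below every LF library, against 14, 14 and 15 in HF-1, HF-3 and HF-4. These 6 were FKBP5, ZBTB16, PDK4, KLF9, ATF3 and MYC, and FKBP5 was lowest of all in HF-2. In HF-2, EGR1 (444 CPM) and JUN (288 CPM) were above all other libraries, and TSC22D3 (121 CPM) and SGK1 (508 CPM) were within the LF range. The nearness of HF-2 to LF thus did not hold for every listed gene. The genes in these comparisons were named after their values were seen. The list's summed level was 2558 CPM in HF-2, between 1274 and 1451 in the other HF libraries, and between 2818 and 3270 in LF. The summed level of 7 endothelial markers, all detected, followed a like order, at 6074 CPM in HF-2, 2986 to 4267 in the other HF libraries and 5058 to 7218 in LF, and its part in the result was not tested. Median log2 fold changes were -0.031 for these markers (3 positive, 4 negative) and 0.57 for 8 macrophage markers (7 positive). For 7 stromal progenitor markers the median was 0.28 (7 positive). With 1 library left out, the endothelial median took either sign (-0.21 to 0.15), and the macrophage median lay between 0.49 and 0.72. The stromal progenitor median fell to 0.046 without LF-4, and up to 2 of its markers were negative in such fits. The parts of these marker lists were not tested either. Within LF, CEBPD and the glucocorticoid and stress list did not share an order. LF-2 had the most CEBPD (13.5 CPM) and the lowest list sum (2818 CPM), and LF-4 the least CEBPD (7.29 CPM) at a list sum of 2949 CPM. The list median ranged from -1.07, with HF-2 left out, to -0.68, with HF-3 left out, and 14 or 15 of the 16 values stayed negative in each such fit. The list was assembled with results of these libraries known, so its direction is not independent evidence.

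**Figure D3:**
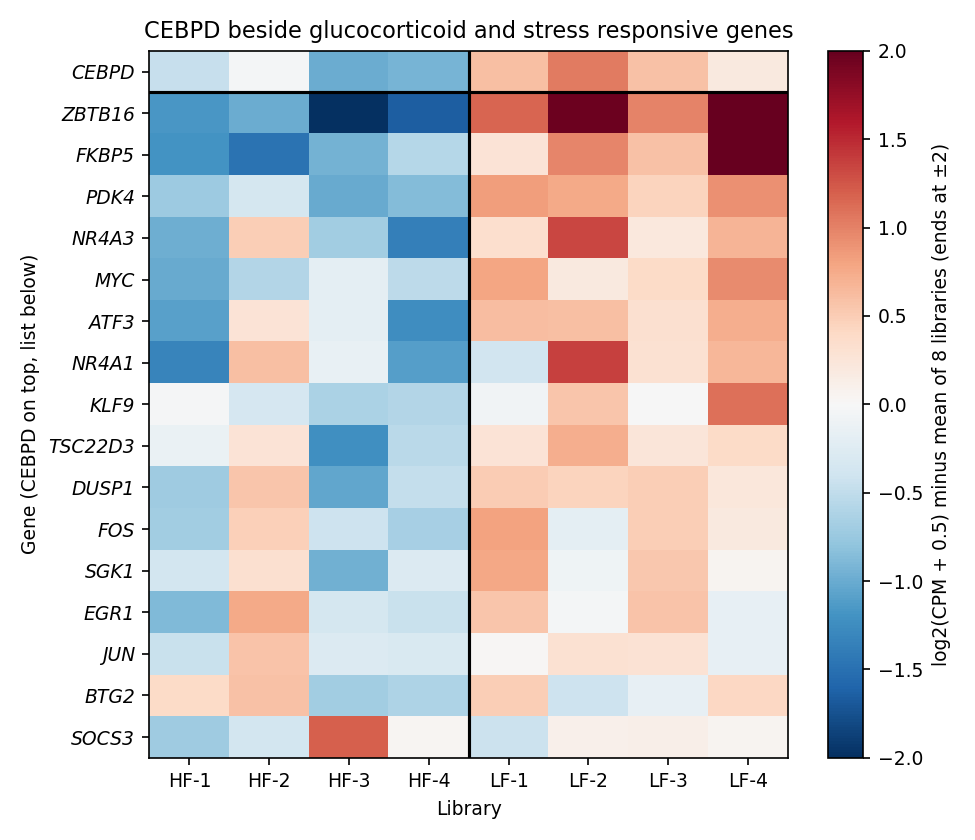
Level of CEBPD (top) and the 16 measured glucocorticoid and stress responsive genes in each library, as log2(CPM + 0.5) minus the gene's mean over the 8 libraries, with the colour scale ending at ±2. CEBPD and most of the listed genes are lower in HF-1, HF-3 and HF-4 than in the LF libraries, and HF-2 is within the LF range or above it for several of the listed genes.

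EBF1, which with its relatives opens the adipocyte programme in precursors and is kept on in mature fat cells, stood at 138, 157, 125 and 128 CPM in HF and at 170.0, 165, 173 and 177 in LF. All HF libraries were below all LF libraries in CPM, by a narrow margin between HF-2 and LF-2. The means of HF and LF were 137 ± 14.3 and 171 ± 5.10 CPM (SD, n = 4 in both), a log2 fold change of -0.32 ± 0.11 (SE; edgeR, adjusted p = 0.210, unadjusted p = 0.0153). In the deposited FPKM the groups overlapped, with HF-2 at 42.9 and LF-4 at 38.6. The value lay between -0.39 and -0.28 when 1 library was left out, and DESeq2 gave an adjusted p of 0.0609. EBF3, a close relative, had a log2 fold change of -0.31 ± 0.20 (adjusted p = 0.509), or 0.25 with the W covariate, and overlapping groups. Its HF mean was 72.9 ± 14.5 CPM and its LF mean 90.2 ± 21.2. With the rows that carry its other name, COE3, it was at 100.4 ± 16.9 and 133 ± 23.3 CPM.

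ZNF423, a cofactor of EBF and SMAD proteins that marks committed preadipocytes in mouse, stood at 73.2, 91.1, 58.3 and 69.9 CPM in HF and at 94.1, 71.2, 99.7 and 55.1 in LF. LF held both the highest and the lowest library, and the log2 fold change was -0.13 ± 0.21 (edgeR, adjusted p = 0.819). It lay between -0.27 (LF-4 left out) and -0.004 (LF-3 left out), and was 0.41 with the W covariate. GATA2 stood at 15.5, 28.4, 12.3 and 15.6 CPM in HF and at 35.7, 18.1, 28.02 and 18.3 in LF. HF-2 was well above the other HF libraries and close to LF-3, so the groups overlapped. The log2 fold change of GATA2 was -0.48 ± 0.30 (adjusted p = 0.498). It moved to -0.78 when HF-2 was left out and to -0.26 when LF-1 was, and was -0.032 ± 0.47 with the W covariate. GATA2 and ZNF423 were both highest in the same 3 libraries, HF-2, LF-1 and LF-3. These were also the 3 libraries with the highest summed level of the endothelial markers, which in LF was 6507 CPM in LF-1, 7218 in LF-3, and 5058 and 5415 in LF-2 and LF-4. The sum does not stand for each marker, since between HF and LF 3 of the 7 had positive and 4 negative log2 fold changes. The same 3 libraries held the fewest estimated counts, at 12696240 in LF-1, 13244545 in HF-2 and 21226969 in LF-3. LF-3 was close in counts to HF-4 (21791698) and HF-3 (22360426), where GATA2 was at 15.6 and 12.3 CPM. Some genes outside the endothelial list, such as NCOR1 and CREBBP, were also highest in them, and others, such as PPARG, were not. The summed level of the stromal progenitor markers had another order. It was 2421 CPM in HF-2, 2294 in LF-1 and 1699 in LF-3, and ranged from 1407 (LF-4) to 2411 (HF-1) in the other libraries. The parts of the endothelial and stromal progenitor markers and of library depth in the values of GATA2 and ZNF423 were not tested.

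**Figure D4:**
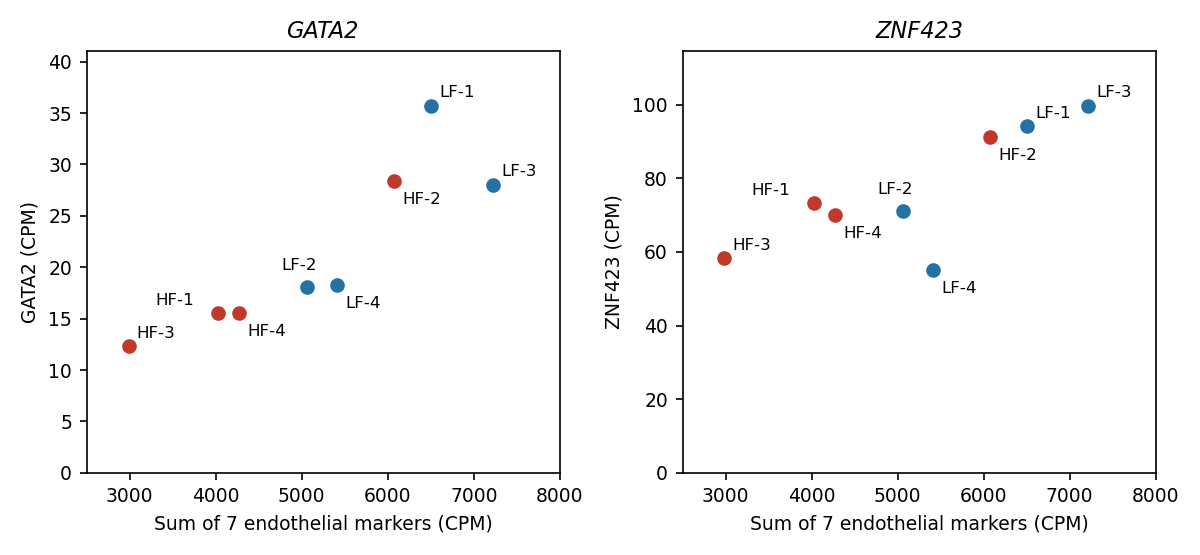
GATA2 (left) and ZNF423 (right) in CPM against the summed CPM of 7 endothelial markers, with 1 point per library. For both genes the libraries HF-2, LF-1 and LF-3 lie at the top right, and HF-3 has the lowest endothelial sum and the lowest GATA2.

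Apart from a small added constant, ratios of members within a library need no scaling between libraries. They compare RNA levels of the whole tissue, not of 1 cell type. Of 7 pairs compared, none passed after Benjamini-Hochberg adjustment, and with 4 against 4 libraries the smallest p of the two-sided exact permutation test is 0.0286. At that limit no pair could pass unless several others reached it too, so the lack of a call cannot show that a ratio is unchanged. CEBPD over CEBPA, an early factor against the late one, was at a log2 CPM ratio of -6.63, -5.64, -6.67 and -6.79 in HF and of -5.11, -4.58, -4.48 and -5.35 in LF. The groups did not overlap, with HF-2 closest to LF. The ratio was 2.93-fold lower in HF (exact permutation p = 0.0286, adjusted p = 0.1). CEBPG over CEBPA, whose genes are neighbours in the reference gene table, also had groups that did not overlap, by a narrow margin. The nearest libraries were HF-2 at -2.45 and LF-2 at -2.43. It was at a mean of -2.63 ± 0.22 in HF and -2.21 ± 0.23 in LF (SD, n = 4 in both, exact permutation p = 0.0286, adjusted p = 0.1), a log2 difference of -0.42. That difference was -0.32 when HF-1 was left out (exact permutation p = 0.143, adjusted p = 0.5). CEBPB over CEBPA differed by -0.053 (exact permutation p = 0.857). RXRA over PPARG, the receptor pair, differed by 0.64 (exact permutation p = 0.171, adjusted p = 0.4), with a ratio of -5.16 in LF-4 and -3.43 in LF-1 as the extremes. That difference was 0.37 when LF-4 was left out and 0.95 when LF-1 was (exact permutation p = 0.0286, adjusted p = 0.1, where 3 libraries face 4). EBF1, GATA2 and ZNF423 over PPARG differed by -0.065, -0.22 and 0.15, with exact permutation p from 0.714 to 0.8286.

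The members' transcripts were also tested singly. None of the 24 that passed the low-count filter was called by edgeR, against 0.0168% of the 23879 transcripts tested, and 3 further rows, all of EBF1, were at 0 in every library. PPARG was spread over 4 transcripts, of which XM_027467224.1 held 57.4% to 65.4% of the gene's estimated counts, XM_027467226.1 14.0% to 26.2%, NM_001310398.1 12.05% to 17.01% and the assembled model TCONS_00050112 2.73% to 10.03%. The leading PPARG transcript held 61.8% ± 3.55 of its counts in HF and 60.6% ± 3.22 in LF (SD, n = 4 in both, exact permutation p = 0.514). CEBPA was split between the assembled model TCONS_00047946 and XM_027466972.1. The model held 65.5%, 67.7%, 69.1% and 64.8% in HF and 73.7%, 72.8%, 73.0% and 68.4% in LF. LF-4 was the LF library that reached into the HF range, and the other 3 LF libraries were above all of HF. The difference was -5.22 percentage points (exact permutation p = 0.0571, adjusted over 6 genes p = 0.343). As for the ratios, no single share could pass after adjustment even at the smallest p of this test. XM_027466972.1 had a log2 fold change of 0.60 ± 0.21 (edgeR, adjusted p = 0.562), and in the authors' deposited table its unadjusted p of 0.0619 was the smallest among the member transcripts.

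EBF1 had 7 transcripts above 0, led by XM_027468382.1 with a share of 41.6% ± 3.12 in HF and 41.5% ± 2.34 in LF (SD, n = 4 in both). The log2 fold change was -0.31 ± 0.13 for XM_027468382.1, -0.49 ± 0.17 for XM_027468381.1 and -0.60 ± 0.20 for XM_027468385.1, and 0.054 ± 0.29 for XM_027468380.1, each with an edgeR adjusted p above 0.5. The leading transcripts of CEBPB and CEBPG held 73.4% and 96.3% in HF and 73.7% and 96.0% in LF. ZNF423 shares varied widely between libraries: its model TCONS_00048699 held from 60.9% to 82.6%, and TCONS_00048698 was listed at 0 in HF-2, LF-1, LF-3 and LF-4 and reached 23.3% in HF-1. How a quantifier shares reads between overlapping models bears on all these shares, and it is not given in the sources used here.

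**Figure D5:**
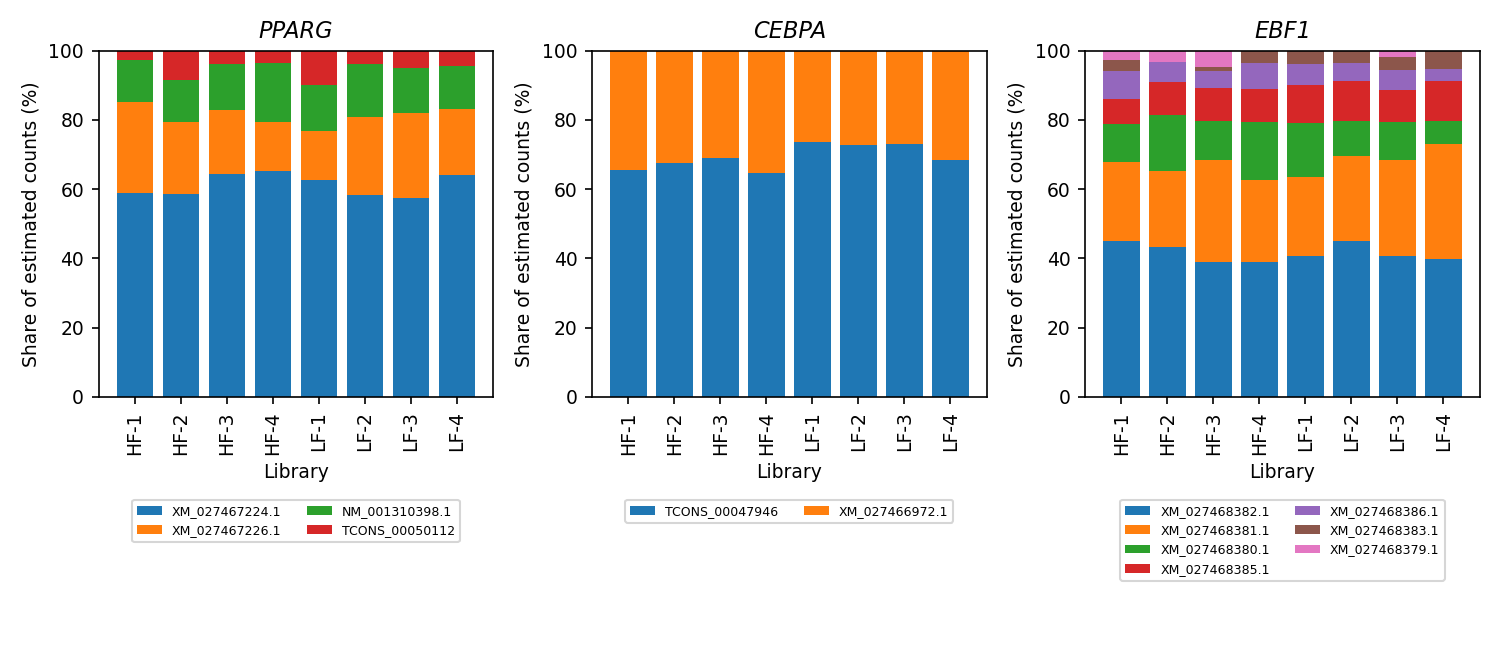
Share of each gene's estimated counts held by its transcripts in each library, for PPARG, CEBPA and EBF1, as stacked bars that sum to 100%. The leading CEBPA transcript, TCONS_00047946, holds 64.8% to 69.1% in HF and 68.4% to 73.7% in LF, while the leading transcripts of PPARG and EBF1 hold like shares in both groups.

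The relatives and partners of the factors were counted from the same fit. Of 8 measured family relatives none passed, against 0.647% of all genes, and 7 had negative values. Their median was -0.23, -0.14 when LF-1 was left out and 0.18, the opposite direction, with the W covariate. NR1H3, the oxysterol receptor LXR alpha that also pairs with RXRA, was at -0.49 ± 0.21 (edgeR, adjusted p = 0.313) and -0.26 when LF-1 was left out, which held 896 CPM against 457 to 631 in the other LF libraries. EBF3 is given above. Of 21 other adipogenic regulators tested, 2 passed, ZBTB16 and KLF4, both lower in HF, against 0.647% of all genes. The median was -0.083, changed sign when LF-1 was left out (0.019) and was 0.20 with the W covariate. KLF4, which acts upstream of CEBPB in mouse cells, was at 8.002, 9.57, 8.89 and 7.04 CPM in HF and at 21.8, 21.1, 14.4 and 15.0 in LF. Its groups did not overlap (log2 fold change -1.11 ± 0.19, edgeR adjusted p = 0.0419), but with 1 library left out it passed only without LF-4 (adjusted p = 0.0364), and otherwise had an adjusted p from 0.0546 to 0.147. KLF4 lies on chromosome Z in the reference gene table, and with the W covariate it did not pass (-0.85 ± 0.28, adjusted p = 0.155). Of 19 coregulators none passed, and 14 were negative, or as few as 11 when 1 library was left out. Their median was -0.17, -0.064 when HF-3 was left out and -0.029 with the W covariate. NRIP1, a corepressor of nuclear receptors in fat, was at -0.49 ± 0.14 (adjusted p = 0.151), and TRIB2, a pseudokinase that brings about the breakdown of CEBPA, at -0.45 ± 0.14 (adjusted p = 0.177).

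Of 22 tested genes known as targets of PPARG or CEBPA, 1 passed, PDK4, against 0.647% of all genes, with 10 positive and 12 negative values and a median of -0.0078, which took either sign when 1 library was left out (-0.061 to 0.053). Of the 22, 8 had an unadjusted p under 0.05, against 15% of all genes, and 4 had groups that did not overlap, against 9.19%. These 4 were PDK4, DGAT2, PNPLA2 and CD36. PNPLA2 was at -1.16 ± 0.33 (edgeR, adjusted p = 0.144, DESeq2 adjusted p = 0.00479). CD36 was at -0.46 ± 0.17 (edgeR, adjusted p = 0.242, DESeq2 adjusted p = 0.0341). PNPLA2 and CD36 were both lower in HF and were named after their values were seen. DGAT2, the enzyme of the last step of triglyceride synthesis, stood at 2242, 1476, 1533 and 2723 CPM in HF and at 328, 895, 333 and 74.8 in LF. Every HF library was above every LF library, yet the LF libraries were widely spread, and the log2 fold change of 2.29 ± 0.60 did not pass with all libraries (edgeR, adjusted p = 0.121). DGAT2 passed when LF-2, its highest LF library, was left out (3.02, edgeR adjusted p = 0.0444) and with DESeq2 (adjusted p = 0.0152). With the W covariate, where the contrast rests on HF against LF-4, its lowest library, the value was 4.74 ± 0.80. The tissue check genes ADIPOQ, PLIN1, FABP4 and LPL were at -0.009, 0.18, -0.11 and -0.007, none of them larger than its standard error. The lipid droplet proteins CIDEC and CIDEA, the other 2 adipocyte markers listed, were at 0.86 ± 0.30 (edgeR, adjusted p = 0.216, unadjusted p = 0.0164) and 0.80 ± 0.29 (adjusted p = 0.233, unadjusted p = 0.0194), with overlapping groups. In the list of target genes, UCP3 was at 0 in every library.

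Genes whose pattern over the 8 libraries was most like that of PPARG, CEBPA or CEBPD were sought among 8429 genes with a mean of at least 5 CPM, by Pearson's r of log2(CPM + 0.5), as a description. The water channel AQP1 was most like PPARG (r = 0.979, Spearman's rho = 0.952), followed by CNKSR2 (r = 0.961) and DGCR2 (r = 0.961). NDUFB8, a subunit of respiratory complex I, was most like CEBPA (r = 0.959), followed by TLL1 (r = 0.946) and ACTR10 (r = 0.940). IFT74, a protein of ciliary transport, was most like CEBPD (r = 0.982, rho = 0.976), followed by PTAR1 (r = 0.976) and SPINZ (r = 0.966). IFT74 stood at 6.59, 7.09, 4.49 and 4.56 CPM in HF and at 12.7, 15.6, 14.3 and 10.7 in LF, with HF-2 highest in HF and LF-4 lowest in LF, as for CEBPD. IFT74 and PTAR1 lie on chromosome Z in the reference gene table and CEBPD does not. No chromosome was found for SPINZ in that table. SPINZ sums rows of near-identical copies, and its value is uncertain. LF-4, the LF library with W-described transcripts, was also the lowest of LF for PTAR1 (12.8 CPM) and SPINZ (256 CPM). The part of the sex chromosomes in the pattern of CEBPD was not tested. The 8 libraries share their group structure in all these values, and the highest of 8429 correlations over 8 points is high by selection.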

How the data were processed

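The authors deposited estimated counts and FPKM per transcript and library, per the file headers, and their table also holds a log2 ratio and a raw p-value. That log2 value is the log2 ratio of mean FPKM in all 48592 rows, and the test behind the p-value is not named. Bowtie2 2.2.8 and TopHat2 2.1.1 are listed in the submitters' processing notes. The quantifier, build and strandedness were not given in the sources used here, so reads of overlapping antisense genes cannot be told apart. A table of lncRNAs was not used.

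Estimated counts were summed per symbol and rounded. The 2137 rows without a symbol, with 0.839% to 0.965% of the counts, were left out. HF was tested against LF with edgeR 4.0.16 (R 4.3.3), using quasi-likelihood, TMM scaling, filterByExpr and Benjamini-Hochberg adjustment at 0.05. Ratios (pseudocount 0.5 CPM) and shares used two-sided exact permutation tests over samples. Alternatives were DESeq2 1.42.0, its size factors, upper-quartile scaling, limma 3.58.1 on log2(FPKM + 1) for genes whose mean FPKM reached 0.5, a fit without low-count filtering, a replicate block, a covariate for W-described transcripts and leaving out each library. Code was tested on simulated data.

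Members and lists were chosen with earlier results of these data known. All members were named, and of each other list the genes past the threshold or, where fewer than 2 passed, the 2 with the smallest p. Outside this rule were the tissue check genes, CIDEC, CIDEA, UCP3, NCOR1, CREBBP and the genes said above to be named after their values were seen. NCOR1 and CREBBP were picked by their values. The reference gene table is of assembly IASCAAS_PekinDuck_T2T and gave neighbours and chromosome Z membership only. Of 28 member transcripts with RefSeq accessions, 15 matched it without their version.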

Additional observations from a re-analysis of the deposited data

Results flagged for a closer look

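Of 44 groups of 4 libraries examined (levels, ratios and leading transcript shares of the members), 6 had a library whose gap to the nearest other exceeded Dixon's 95% critical value, and chance flags about 1 in 20 groups. RXRA in LF-4, at 25.6 CPM, lay far below the other LF libraries, which were at 47.2 to 51.6. The log2 ratio of CEBPD over CEBPA in HF-2, at -5.64, was far above the other HF libraries (-6.79 to -6.63). The log2 ratio of GATA2 over PPARG in HF-2, at -4.75, was likewise far above the other HF libraries. The share of TCONS_00047946 in CEBPA was 68.4% in LF-4, below 72.8% to 73.7% in the other LF libraries. The share of XM_027466973.1 in CEBPG was lowest in HF-2 within HF, at 92.9%, and in LF-3 within LF, at 92.4%, against 96.9% to 97.6% in the other 6 libraries.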

How the results depend on the processing

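No member passed in any fit that left out a library, and 13 of 15 alternatives gave 0 members. DESeq2 and the W covariate gave 1 each, CEBPD and RXRA. The count over all genes was 68, and 606 with DESeq2, 128 with the W covariate, 9 with the replicate block and 2 to 92 without 1 library. Other adipogenic regulators gave 1 call instead of 2 with the block and with the W covariate, where KLF4 was lost, and 0 to 2 without 1 library. Coregulators gave 1, NRIP1, instead of 0 with DESeq2. Target genes gave 4 instead of 1 with DESeq2, 2 with the W covariate, 0 with the block and 0 to 2 without 1 library. Glucocorticoid and stress responsive genes gave 5 instead of 2 with DESeq2, 3 with the W covariate, 1 with the block and 0 to 3 without 1 library. The causes were not tested, other than that fewer samples entered the fits without a library. The labels do not state that replicate numbers pair the libraries. Deviations of equal numbers correlated at 0.0061, -0.25, -0.17 and 0.061, which cannot show whether the numbers stand for a shared batch. With the block CEBPD was at -1.31 (edgeR adjusted p = 0.116). Directions reversed for CEBPG, which ranged from -0.15 to 0.0033 (without LF-4) over the fits that omitted 1 library and was -0.32 with the W covariate, and for ZNF423 with the W covariate (0.41). The log2 difference of EBF1 over PPARG was 0.0049 from FPKM and between -0.21 and 0.14 without 1 library. CEBPB over CEBPA ranged from -0.20 to 0.11, RXRA over PPARG from 0.37 to 0.95, GATA2 over PPARG from -0.48 to 0.18 and ZNF423 over PPARG from -0.050 to 0.45. Leading share differences, in percentage points, ranged from -0.0062 to 2.33 for PPARG, -2.57 to 1.86 for CEBPB, -0.98 to 1.36 for CEBPG and -1.11 to 1.22 for EBF1, whose value from FPKM was -1.73. CEBPD was counted only 65 to 402 times per library, and GATA2 and CEBPD had the largest standard errors among the members.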
